A study of Homo sapiens with 12 samples.

Results

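The genes described here encode leukocyte integrin chains and other adhesion molecules. They were chosen by symbol, as the rows of the expression table named ITGAL, ITGAM, ITGAX, ITGB2, ITGA4, ITGB1, ITGB7, ICAM1, ICAM3 and SELPLG, which makes 10 of the 58233 genes in the table. Poly(A) RNA was sequenced from HL-60, a human acute myeloid leukaemia cell line, after 3 h. Cells were left untreated, given 100 nM all-trans retinoic acid (ATRA), given 500 nM palbociclib, an inhibitor of the cyclin-dependent kinases CDK4 and CDK6, or given both drugs at these doses. Each of the 4 groups had 3 libraries, 12 in all, and nothing in the labels says that a group's libraries came from separate cultures, so p-values measure the spread between these libraries, which may be technical. All results come from 1 cell line. The study used the surface level of CD11b, the product of ITGAM, as one of its measures of myeloid differentiation over days, and the present values are transcript levels at an early time.

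Integrins are heterodimers of an α and a β chain that bind ligands on other cells or in the extracellular matrix, and their affinity is set from inside the cell by proteins such as talin and kindlin. The leukocyte-restricted integrins share the β chain CD18, encoded by ITGB2, with the α chains CD11a (ITGAL), CD11b (ITGAM) or CD11c (ITGAX), and CD11b and CD11c are textbook markers of maturing myeloid cells. ICAM1 and ICAM3 encode immunoglobulin-type ligands of these integrins, ITGA4 pairs with ITGB1 or ITGB7, and SELPLG encodes PSGL-1, the selectin ligand used in rolling.

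The values are RPKM, read counts scaled to gene length and library size, given as whole numbers, so that low genes moved in steps of 1. Levels of different genes can be set side by side only as far as the gene lengths used in that scaling hold, which was not checked. With 0.1 added, log2 RPKM was fitted by limma over the 7820 genes with at least 5 RPKM in at least 3 libraries, and a gene was called at a Benjamini-Hochberg adjusted p under 0.001, "rose" and "fell" being kept for calls. Of the 10 members, 5 passed this floor (ITGB2, ITGAL, ITGA4, ITGB1 and ICAM1), ICAM1 only through the libraries with ATRA. The other 5 (ITGAM, ITGAX, ITGB7, ICAM3 and SELPLG) stayed at or below 4 RPKM in every library and are given by their values. The ATRA and the combined groups were set against the same untreated libraries, so these comparisons are not independent of each other.

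In the untreated cells ITGB2, ITGB1, ITGA4 and ITGAL were abundant and the remaining 6 members were low. ITGB2 had a mean of 58.0 RPKM and exceeded 93.5% of the 14003 genes that reached 1 RPKM in at least 3 libraries. ITGB1 followed at 34.7 RPKM, ITGA4 at 28.0 and ITGAL at 24.3, and the untreated ranges of these last 2 (27 to 30 and 23 to 26 RPKM) lay close to each other without overlapping. SELPLG had 2.67 RPKM on average, ITGB7, ICAM1 and ICAM3 were at 1 RPKM in each untreated library, and ITGAM and ITGAX were listed at 0. The untreated cells thus had the transcripts of CD11a and CD18 and of both chains of α4β1, while those of the maturation-linked α chains CD11b and CD11c were listed at 0.

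Among the checks of the libraries, the retinoid-response genes DHRS3, CD38 and HIC1 rose with ATRA, HIC1 from 0 in each untreated library to between 8 and 11 RPKM, while the other 3 genes of that list were at 0 in every library. DHRS3, CD38 and HIC1 passed the floor only through their libraries with ATRA, so their calls are given as a description. The E2F-linked genes CCNE1, E2F1, MCM5 and WDR76 fell with palbociclib, and CDC6 differed by -0.97 (adjusted p = 0.00327, not called). Of the promyelocyte markers, MPO was between 1077 and 1579 RPKM and PRTN3 between 195 and 310 RPKM in all libraries, whereas ELANE was at 0 or 1 RPKM. Of 13 markers of other cell types, 11 were at 0 in every library, and the sum of the list was 7 to 10 RPKM in untreated cells, 10 to 15 with ATRA, 7 to 10 with palbociclib and 11 to 15 with both, all of it from NKG7 and PECAM1. The treated libraries numbered 1 deviated together from their groups. They gave the lowest value of all 3 treated groups for 4 of the 5 members above the floor (ITGAL, ITGA4, ITGB1 and ITGB2) and for 1526 of the 7820 genes (19.5%), and the highest value of all 3 for 1985 genes (25.4%), so results are also given without these 3 libraries where that changed a call. The part of whatever these libraries share in the results was not tested.

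**Figure D1:**
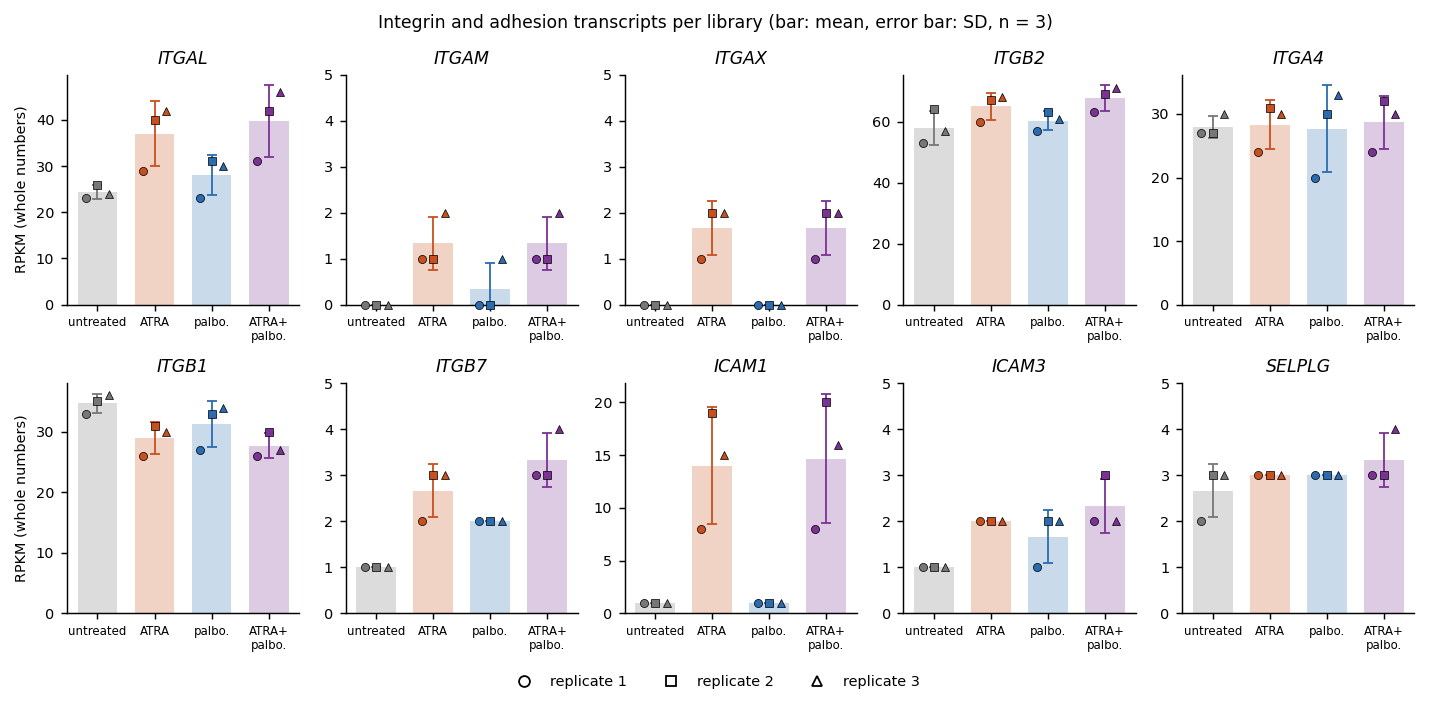
RPKM of the 10 members in each library, by treatment, on linear axes from 0 (5 low genes share a scale to 5 RPKM). Bars and error bars are means and SD of 3 libraries, and symbols mark the replicate number: ICAM1 sat at 1 RPKM in all 6 libraries without ATRA and at 8 to 20 RPKM in the 6 with it, and circles (replicate 1) were lowest in the treated groups for ITGAL, ITGB2, ITGA4 and ITGB1.

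ICAM1, the endothelial and leukocyte ligand of the CD11a and CD11b integrins, was the member that rose. As the member with the largest difference among the 5 tested, it is shown with its promoter. The 250 bases before its annotated start lie on the plus strand at chr19:10270870-10271119 of GRCh38.p14 (RefSeq), with capitals marking the motifs searched.

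ICAM1: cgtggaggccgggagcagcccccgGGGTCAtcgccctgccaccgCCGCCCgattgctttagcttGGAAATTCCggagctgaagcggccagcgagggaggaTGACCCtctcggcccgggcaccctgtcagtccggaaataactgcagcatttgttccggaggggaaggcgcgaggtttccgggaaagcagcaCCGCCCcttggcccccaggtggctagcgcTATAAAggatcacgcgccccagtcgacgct

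Both strands were searched for 6 motifs, and the share of the 35116 promoter windows of the same length holding each is given. This window held the NF-κB motif GGAAATTCC from -186 to -178 relative to the start, which 0.413% of windows hold. It was searched as 1 exact sequence of 9 bases, where the other motifs have 6, and other forms of NF-κB sites were not searched. Its share is low partly through this length, so the match is a description and its share cannot be compared with those below. It held the nuclear receptor half-site GGGTCA at 2 places, once on each strand, against 12.1% of windows with at least 1 (the related AGGTCA, in 12.1% of windows, was absent). TATAAA, the TATA box, lay from -30 to -25 (10.7% of windows), and the SP1 motif GGGCGG occurred 2 times on the minus strand (42.6% of windows), while GAGGAA, the core of PU.1 sites (23.6% of windows), was not in it. These matches describe letters, and no binding was measured.

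The ICAM1 gene lies at chr19:10271093-10286615 (plus strand, GENCODE v44 on GRCh38), so the RefSeq start from which the window is counted lies inside the gene as GENCODE draws it. It had 1, 1 and 1 RPKM in the untreated libraries, and 8, 19 and 15 RPKM with ATRA. With palbociclib alone it had again 1, 1 and 1 RPKM, and with both drugs 8, 20 and 16 RPKM. Every library with ATRA was above every library without it, and replicate 1 was the lowest of both ATRA groups. ICAM1 rose by 3.59 on the log2 scale with ATRA (SE 0.34, adjusted p = 3.8e-05), and it was the only member called among the 5 tested, where 2.77% of all tested genes were called higher and 1.94% lower. Group means differed 14.0-fold. As 1 RPKM in untreated cells stands for anything from 0.5 to 1.5, rounding alone allows 9.0-fold to 29.0-fold, and 7.0-fold to 15-fold if decimals were cut off. The adjusted p was between 1.5e-05 and 0.000476 with 1 library left out at a time, but 0.0036 when only the 6 libraries compared entered the fit, which ended the call. ICAM1 passed the floor of 5 RPKM only through its ATRA libraries. With the floor at 1 RPKM, which all 12 of its libraries reached, its adjusted p with ATRA was 0.000236. With 1 in place of 0.1 added before the logarithm, the difference with ATRA was 2.83. The share of cells with the transcript and its level per cell cannot be told apart in bulk RNA.

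With both drugs ICAM1 rose by 3.65 against untreated (SE 0.34, adjusted p = 2.5e-05), the only member called where 3.76% of genes were called higher and 4.28% lower, and by the same 3.65 against palbociclib alone (adjusted p = 4.6e-05, with 2.11% of genes called higher and 0.997% lower). In fits of the 6 libraries compared these adjusted p-values were 0.0028 and 0.0067, and both calls ended. Palbociclib alone gave a difference of 0 (95% interval -0.75 to 0.75, not called). All 6 libraries of this comparison were at 1 RPKM, so the interval takes its spread from other groups and genes. Rounding of these values allows any ratio from 0.33 to 3.0. Adding palbociclib to ATRA gave a difference of 0.06 (95% interval -0.69 to 0.81), and the departure from additivity of the 2 drugs was 0.06 (SE 0.48, adjusted p = 1). The intervals for palbociclib alone and for adding it to ATRA hold differences of either sign. Averaged over palbociclib, ATRA moved ICAM1 by 3.62 (SE 0.24, adjusted p = 1.4e-06, with 4.68% of genes called higher and 4.94% lower). An exact permutation test of the 12 libraries within the palbociclib strata, two-sided, gave p = 0.005, the smallest it allows, and 0.0343 after adjustment over the 7820 genes, of which 14.6% reached that smallest p.

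ICAM1 shares a cluster on chromosome 19 with other ICAM genes, which had lower levels than ICAM1 in the libraries with ATRA. ICAM4, whose product is a red cell antigen, was at 0 in all 12 libraries, and ICAM5, known from neurons, had 1 RPKM in each library without ATRA and 2 to 3 RPKM with it. ICAM3, a ligand of CD11a on resting leukocytes, lies at chr19:10333776-10339661 on the minus strand. It had 1, 1 and 1 RPKM untreated, 2, 2 and 2 RPKM with ATRA, 1, 2 and 2 RPKM with palbociclib and 2, 3 and 2 RPKM with both. Its ATRA libraries did not overlap the untreated ones, though a step from 1 to 2 RPKM can stand for as little as no change (1.0-fold) or as much as 5.0-fold. ICAM1 shared 815 of its 3448 exonic bases with the antisense ICAM4-AS1 and 61 with LIMASI, and ICAM3 shared 2101 of its 2788 with an antisense lncRNA. All 3 were listed at 0 in every library, and although htseq-count counts by strand at its default setting, no source states that the library kit kept strand, so reads in shared bases cannot be assigned.

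The genes whose profile over the 12 libraries was most like that of ICAM1 (Pearson r of log2 values) were NDRG1 (r = 0.997), B3GNT8 (0.997) and CD300LB (0.996). NDRG1 had 2 RPKM in each library without ATRA and 9 to 15 with it, B3GNT8 went from 1 to between 4 and 7 RPKM, and CD300LB from 0 to between 2 and 5 RPKM. The 12 points share the same libraries and fall into 2 clusters by ATRA, so these correlations mainly reflect a low group and a high group.

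ITGAL encodes CD11a, the α chain of LFA-1, the receptor for ICAM1 and ICAM3, and lies at chr16:30472658-30523567. It had 23, 26 and 24 RPKM untreated, 29, 40 and 42 RPKM with ATRA, 23, 31 and 30 RPKM with palbociclib and 31, 42 and 46 RPKM with both. The ATRA and combined groups lay above the untreated range without overlap, while palbociclib alone overlapped it. The difference with ATRA was 0.59 on the log2 scale (SE 0.18, adjusted p = 0.0382), and with both drugs 0.68 (SE 0.18, adjusted p = 0.0136), a ratio of means of 1.52 and 1.63. Neither passed 0.001. At the less strict 0.05, ITGAL counted as higher in both comparisons, as did 8.71% of genes with ATRA and 12.7% with both drugs. Without the 3 treated libraries numbered 1 the differences were called, with adjusted p = 0.000571 for ATRA and 0.000267 for both drugs, beside 3.09% and 4.08% of genes called higher there. This exclusion was chosen after seeing the data. It removes the lowest ITGAL value of each treated group and keeps untreated library 1, so a larger difference was fixed in advance and these calls are a description only. With 1 library left out at a time these adjusted p-values reached 0.135 and 0.0594, and with the floor at 1 RPKM that for ATRA was 0.0857. Averaged over palbociclib the ATRA difference was 0.54 (SE 0.12, adjusted p = 0.0078), and the exact permutation test gave p = 0.01 (0.0552 adjusted over all tested genes).

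ITGAL with palbociclib alone differed from untreated by 0.19 (95% interval -0.20 to 0.58). Without the treated libraries numbered 1 this was 0.33 (95% interval 0.17 to 0.48, adjusted p = 0.0357, not called), an exclusion that again removes the lowest palbociclib value. Adding palbociclib to ATRA gave a difference of 0.10 (95% interval -0.29 to 0.49). In pairs of same-numbered libraries, the combined value was 31 against 29, 42 against 40 and 46 against 42 RPKM, higher in 3 of 3. With the replicate number as a block, this difference had an interval of -0.10 to 0.30 and adjusted p = 1.

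ITGAM and ITGAX, further along chromosome 16 (chr16:31259967-31332892 and chr16:31355134-31382999), came up from 0 with ATRA to values at the lower limit of the table. ITGAM, for CD11b, had 0, 0 and 0 RPKM untreated, 1, 1 and 2 RPKM with ATRA, 0, 0 and 1 RPKM with palbociclib and 1, 1 and 2 RPKM with both. Its palbociclib group overlapped both the untreated and the ATRA groups, and the values with ATRA were the same in all 3 replicate numbers whether or not palbociclib was present. ITGAX, for CD11c, had 0, 0 and 0 RPKM untreated and with palbociclib, and 1, 2 and 2 RPKM both with ATRA and with both drugs. All 6 libraries with ATRA were thus above all 6 without it for ITGAX, which 3.86% of the 14003 genes at 1 RPKM or more showed in the higher direction. No fold is given against groups listed at 0. When the floor was lowered to 1 RPKM, ITGAX was called with ATRA (adjusted p = 2.4e-05), as were 1.95% of the 14003 genes in that direction, and ITGAM was not (adjusted p = 0.0193). ITGAX passed that floor only through its ATRA libraries, and the groups at 0 have no spread, so its call is given as a description. Exact permutation tests of the ATRA label gave unadjusted p = 0.005 for ITGAX and 0.015 for ITGAM. ITGAD, the next α gene in this cluster and also a partner of CD18, was at 0 in every library.

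The 250 bases before ITGAM, a gene with a well-known PU.1-dependent promoter, are shown for comparison with ICAM1, on the plus strand at chr16:31259725-31259974 (GRCh38.p14, RefSeq), with the same motifs in capitals.

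ITGAM: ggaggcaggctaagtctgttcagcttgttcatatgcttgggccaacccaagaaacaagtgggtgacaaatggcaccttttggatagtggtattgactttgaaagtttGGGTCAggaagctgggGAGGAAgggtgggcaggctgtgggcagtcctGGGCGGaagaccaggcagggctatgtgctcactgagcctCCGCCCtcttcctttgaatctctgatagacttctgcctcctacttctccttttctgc

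ITGAM had 1 GGGTCA, from -143 to -138, and 1 GAGGAA, from -127 to -122, with GGGCGG once on each strand, but neither GGAAATTCC nor TATAAA. Whether PU.1 binds at this GAGGAA, or elsewhere in the window, was not tested. Thus GGGTCA was in the windows of both ICAM1 and ITGAM, and also in those of ITGA4 and ICAM3, whose values are given separately. Of the members, 6 had an entry in the promoter table, and ITGAL, ITGAX, ITGB2 and SELPLG had none. SPI1, the gene for PU.1, went from 80 to 86 RPKM untreated to 102 to 108 RPKM with ATRA, a difference of 0.33 (adjusted p = 0.00119, not called), and it rose by 0.41 with both drugs (adjusted p = 0.000185). With palbociclib alone SPI1 differed by 0.21 (adjusted p = 0.0499, not called). Adding palbociclib to ATRA gave a difference of 0.08 (SE 0.05, not called). A link between SPI1 and ITGAM levels was not tested.

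ITGB2, the shared CD18 chain on chromosome 21 (chr21:44885953-44931989, minus strand), was the highest member in every library. It had 53, 64 and 57 RPKM untreated, 60, 67 and 68 RPKM with ATRA, 57, 63 and 61 RPKM with palbociclib and 63, 69 and 71 RPKM with both. No group was free of overlap with another. The differences from untreated were 0.17 with ATRA (SE 0.08, adjusted p = 0.186), 0.06 with palbociclib (adjusted p = 0.776) and 0.22 with both (adjusted p = 0.06), none past 0.05. Averaged over palbociclib, the ATRA difference was 0.17 (adjusted p = 0.0541). Both drugs against palbociclib alone differed by 0.16 (adjusted p = 0.262). Blocking on the replicate number, which pairs these 2 groups, gave an adjusted p of 0.0248, with the combined value higher in 3 of 3 pairs and no call at 0.001. ITGB2 shares 303 of its 7300 exonic bases with ITGB2-AS1, which had 2 to 5 RPKM.

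Each α chain was set against CD18 within a library. The ratio of ITGAL to ITGB2 was 0.434, 0.406 and 0.421 untreated, 0.483, 0.597 and 0.618 with ATRA, 0.404, 0.492 and 0.492 with palbociclib and 0.492, 0.609 and 0.648 with both. The 2 groups with ATRA lay above the untreated range, but their replicate 1 libraries were no higher than the top of the palbociclib range. ITGAM and ITGAX were each at most 0.0299 of ITGB2 in any library, so that after 3 h of ATRA the CD11a transcript still made 91.3% to 93.9% of the sum of these 3 α chains, against 96.8% to 100% in libraries without ATRA.

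**Figure D2:**
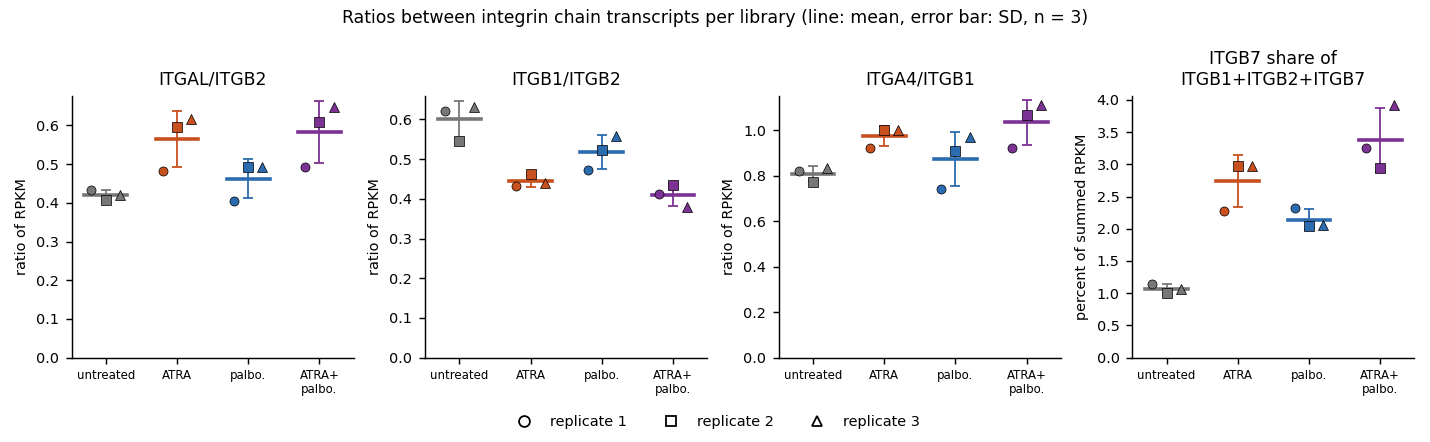
Ratios of RPKM between integrin chains in each library, and ITGB7 as a percentage of the 3 β chains, by treatment, on linear axes from 0. Lines and error bars are means and SD of 3 libraries: ITGB1 to ITGB2 was 0.380 to 0.463 with ATRA and 0.474 to 0.632 without it, and ITGAL to ITGB2 was 0.406 to 0.434 untreated and up to 0.648 with both drugs.

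ITGB1, the β chain of receptors for fibronectin, laminin and VCAM-1, was lower in the ATRA and combined groups than in untreated cells, with no call at 0.001. It lies at chr10:32887273-33005792 on the minus strand, and had 33, 35 and 36 RPKM untreated, 26, 31 and 30 RPKM with ATRA, 27, 33 and 34 RPKM with palbociclib and 26, 30 and 27 RPKM with both. The ATRA and combined groups lay below the untreated range without overlap, and the palbociclib group overlapped both. The difference from untreated was -0.26 with ATRA (SE 0.10, adjusted p = 0.0893) and -0.33 with both drugs (SE 0.10, adjusted p = 0.0293). The latter counted as lower only at 0.05, where 17.7% of all tested genes were lower, and palbociclib alone gave -0.15 (adjusted p = 0.483). The exact permutation test of ATRA gave p = 0.025 (0.0978 adjusted over all tested genes).

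Within each library ITGB1 made 35.0% to 38.3% of the summed β chains ITGB1, ITGB2 and ITGB7 in untreated cells, 29.5% to 30.7% with ATRA, 31.4% to 35.1% with palbociclib and 26.5% to 29.4% with both. All 6 libraries with ATRA were below all 6 without it. The margin was narrow, since the ratio of ITGB1 to ITGB2 was 0.463 in the highest library with ATRA and 0.474 in the lowest without it, and moving values by 0.5 RPKM closes this gap (0.474 against 0.461).

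ITGA4, the α4 chain of VLA-4 and LPAM, stayed near its untreated level in all groups. The gene lies at chr2:181457202-181538940. It had 27, 27 and 30 RPKM untreated, 24, 31 and 30 RPKM with ATRA, 20, 30 and 33 RPKM with palbociclib and 24, 32 and 30 RPKM with both. The groups overlapped throughout, and replicate 1 was the lowest of each treated group. The differences from untreated were 0.01 with ATRA (95% interval -0.38 to 0.40), -0.05 with palbociclib (-0.44 to 0.35) and 0.03 with both (-0.37 to 0.42). ITGA4 shares 2813 of its 10654 exonic bases with CERKL on the opposite strand, which had 9 to 13 RPKM. The ratio of ITGA4 to its partner ITGB1 was 0.771 to 0.833 untreated, 0.923 to 1.00 with ATRA, 0.741 to 0.971 with palbociclib and 0.923 to 1.11 with both, so that the ATRA groups lay above the untreated range and overlapped the palbociclib range.

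ITGB7, the other partner of α4 and part of a gut-homing receptor, was the one member whose palbociclib libraries did not overlap the untreated ones. It had 1, 1 and 1 RPKM untreated, 2, 3 and 3 RPKM with ATRA, 2, 2 and 2 RPKM with palbociclib and 3, 3 and 4 RPKM with both. For palbociclib this is 1 of 10 members, beside 3.75% of the 14003 genes higher without overlap, and rounding allows any ratio from 1.0 to 5.0. The ratio of means was 2.67 with ATRA (1.44 to 6.33 by rounding) and 3.33 with both drugs (1.89 to 7.67). With the floor at 1 RPKM, ITGB7 was called with ATRA (adjusted p = 0.000662) and with both drugs (adjusted p = 0.000126) but not with palbociclib (adjusted p = 0.015), where 2.55% of genes were called higher with both drugs and 0.207% with palbociclib. With the replicate number as a block as well, the call with ATRA was lost (adjusted p = 0.00115). Exact permutation tests gave unadjusted p = 0.005 for ATRA and 0.03 for palbociclib. ITGB7 (chr12:53191323-53207282, minus strand) shares 1881 of its 4451 exonic bases with ZNF740 on the opposite strand, which had 7 to 9 RPKM, so its low counts are uncertain.

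SELPLG (chr12:108621895-108633894, minus strand) had 2, 3 and 3 RPKM untreated, 3, 3 and 3 RPKM with ATRA as well as with palbociclib, and 3, 3 and 4 RPKM with both. All groups overlapped, and the exact permutation test of ATRA gave p = 0.5. No other gene shares exonic bases with SELPLG, ITGAM or ITGAX in the annotation.

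Counted over all 10 members, 6 had ATRA libraries entirely above the untreated ones (ICAM1, ICAM3, ITGAL, ITGAM, ITGAX and ITGB7), beside 8.83% of the 14003 genes at 1 RPKM or more, and 1 had them entirely below (ITGB1), beside 12%. The same 6 and the same 1 did so with both drugs, beside 11.1% and 14.5%. Of these 7, ITGAM, ITGAX, ITGB7, ICAM3 and ICAM1 had no untreated value above 1 RPKM, where a group without spread makes separation by whole steps easier. Between both drugs and palbociclib alone, ICAM1, ITGAX and ITGB7 did not overlap (6.21% of genes higher). Between both drugs and ATRA alone no member was free of overlap, beside 0.621% of genes higher and 1.56% lower.

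**Figure D3:**
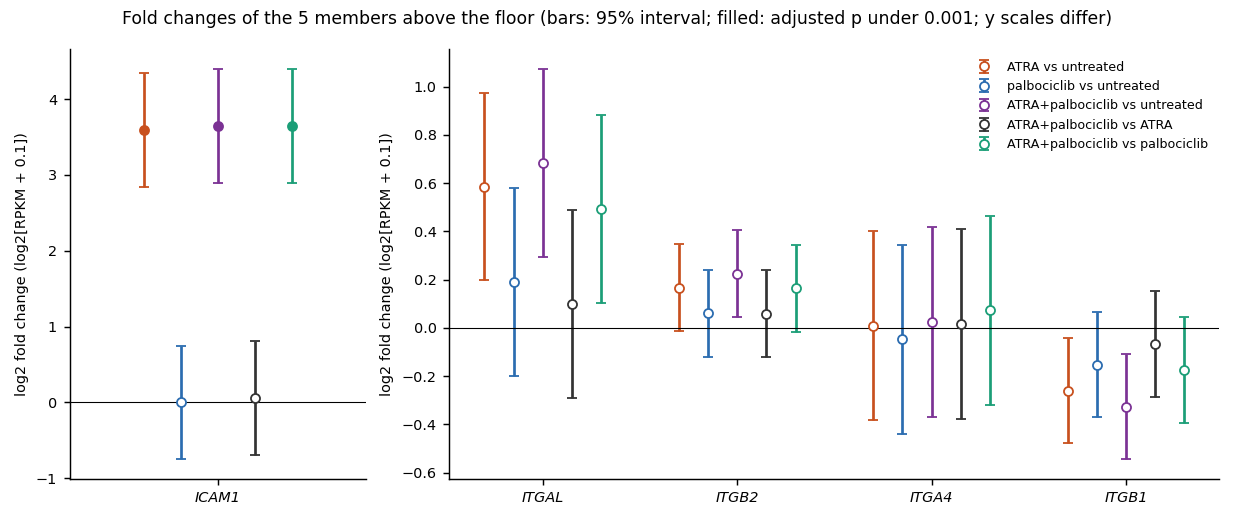
Log2 fold changes with 95% intervals of the 5 members above the floor in 5 comparisons, with separate scales for ICAM1 and the other 4. Filled points passed the adjusted p of 0.001: those of ICAM1 with ATRA present lie between 3.59 and 3.65, whereas its palbociclib differences lie at 0 and 0.06.

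Palbociclib alone called none of the 5 tested members, beside 0.0128% of genes higher and 0.486% lower. At an unadjusted limma p under 0.05 the number was also 0, beside 569 of the 7820 genes higher and 790 lower. Adding palbociclib to ATRA called 0 members and 0.0% of genes in either direction. At an unadjusted p under 0.05 by limma there were 0 members, beside 44 genes higher and 243 lower. Averaged over ATRA, palbociclib called 0 members (0.0128% of genes higher, 0.563% lower). At an unadjusted p under 0.05 it had 0 members, beside 542 genes higher and 797 lower. The departure from additivity called 0 members and 0.0% of genes, with 0 members at an unadjusted p under 0.05, beside 154 genes higher and 82 lower. With the replicate number as a block, 1 member had an unadjusted limma p under 0.05 with palbociclib alone (ITGB1), beside 1043 genes higher and 1237 lower. Averaged over ATRA, 2 did (ITGB1 and ITGAL), beside 996 and 1169. No member was called. The widest 95% interval for adding palbociclib to ATRA was that of ICAM1, and the narrowest that of ITGB2 (-0.12 to 0.24). With the replicate number as a block, which pairs these groups, the interval was -0.56 to 0.67 for ICAM1 and -0.04 to 0.16 for ITGB2. Both still held differences of either sign.

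Other genes of adhesion were taken from lists by function. Of 19 further integrin chains, 13 were at 0 everywhere and 1 passed the floor. This was ITGA5, the α5 chain that pairs with ITGB1 as the fibronectin receptor, which had 10 to 12 RPKM untreated, 37 to 45 RPKM with ATRA, 13 to 15 RPKM with palbociclib and 40 to 46 RPKM with both. ITGA5 rose by 1.90 with ATRA (SE 0.10, adjusted p = 4.3e-07) and by 1.99 with both drugs (adjusted p = 2.8e-07). In RPKM, the α5 transcript was above that of its partner ITGB1 in each library with ATRA and below it in each library without ATRA. Which transcript is more abundant depends on the gene lengths used for RPKM. Below the floor, ITGA6, a laminin receptor chain, was at 0 in all 6 libraries without ATRA and at 2 to 3 RPKM in those with it, while ITGAE stayed at 2 to 3 RPKM and ITGAV at 1 to 2 RPKM.

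No gene of the machinery that activates integrins and links them to actin was called against untreated. Of 32 genes listed, 23 were tested, 5 were listed at 0 in every library, among them ILK, for a kinase-like adaptor used in most cells, and 0 were called in either direction with ATRA, with palbociclib or with both, while at adjusted p under 0.05 limma counted 4 higher and 1 lower with ATRA (8.71% and 11.6% of all tested genes) and 8 higher and 1 lower with both drugs (12.7% and 17.7%). The median difference of the list was 0.16 with ATRA, beside -0.01 over all tested genes. Zyxin (ZYX, 59 to 99 RPKM), filamin A (FLNA, 53 to 78 RPKM) and kindlin-3 (FERMT3, 47 to 74 RPKM) had the highest means. FERMT3, required for activation of the CD18 integrins, differed by 0.39 with ATRA (adjusted p = 0.0129) and by 0.43 with both drugs (adjusted p = 0.00588). APBB1IP, the Rap1 effector RIAM, had 12 to 15 RPKM untreated and 19 to 28 RPKM with ATRA (0.85, adjusted p = 0.00402), and 21 to 30 RPKM with both (0.97, adjusted p = 0.00126). Averaged over palbociclib, APBB1IP (0.87, adjusted p = 0.000219) and CYTH1, for the CD18-binding protein cytohesin-1 (1.03, adjusted p = 9e-05), rose with ATRA. They were the 2 genes of the list called there, beside 4.68% of all tested genes called higher and 4.94% lower. CYTH1 had 2 to 3 RPKM untreated, 2 RPKM with palbociclib, and 4 to 5 RPKM with ATRA as well as with both drugs. It passed the floor only through its libraries with ATRA, so its call is given as a description.

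**Figure D4:**
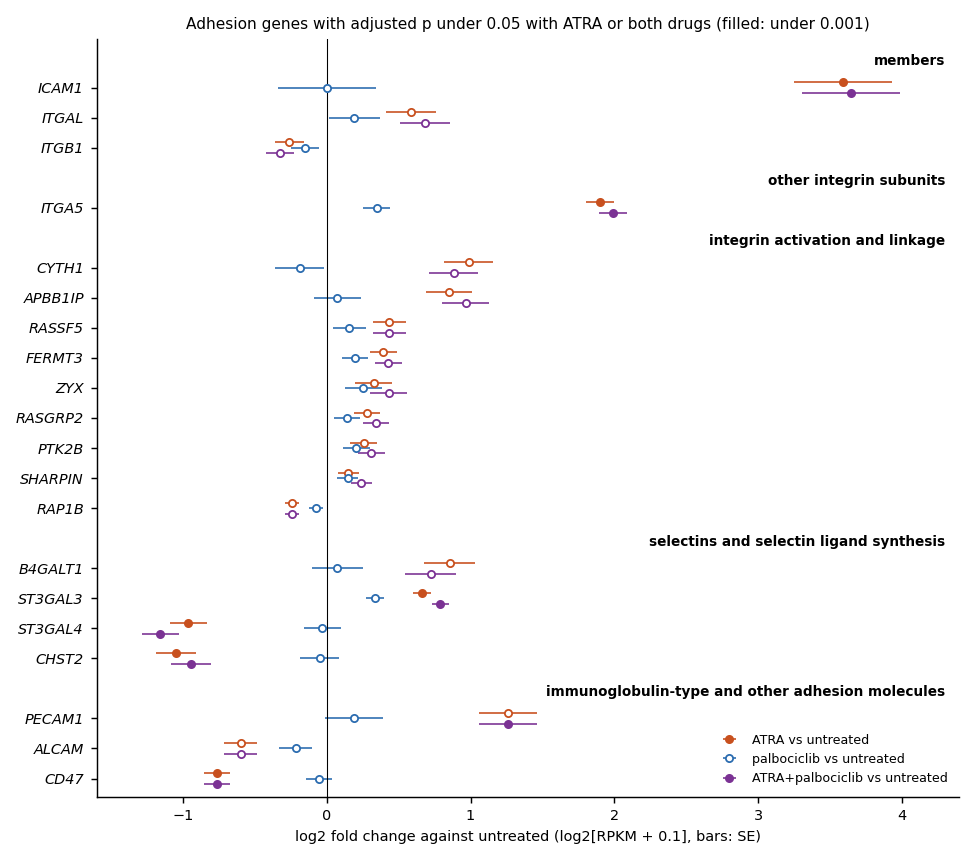
Log2 fold changes against untreated cells, with SE, for listed adhesion genes at adjusted p under 0.05 with ATRA or with both drugs, by list. Filled points passed 0.001: ICAM1, ITGA5 and ST3GAL3 rose and ST3GAL4, CHST2 and CD47 fell with ATRA, and no palbociclib point is filled. PECAM1 passed with both drugs only, although its difference was 1.26 there as well as with ATRA alone.

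Of the enzymes that build selectin ligands on carriers such as PSGL-1, most were not called and the few called moved in opposite directions. Of 17 genes on this list, 8 were tested, of which 1 rose and 2 fell with ATRA as well as with both drugs, and 0 were called with palbociclib. Over all tested genes 2.77% were called higher and 1.94% lower with ATRA, 3.76% and 4.28% with both drugs, and 0.0128% and 0.486% with palbociclib. The median difference of the 8 with ATRA was 0.18. The sialyltransferase ST3GAL3 rose by 0.66 with ATRA (adjusted p = 3.5e-05) and by 0.79 with both, whereas ST3GAL4 went from 14 to 17 RPKM untreated to 7 to 9 RPKM with ATRA and fell by 0.96 (adjusted p = 0.000406). The sulfotransferase CHST2 fell by 1.05 (adjusted p = 0.00039). FUT4, the fucosyltransferase behind CD15, had 9 to 13 RPKM over all libraries and differed by 0.17 with ATRA (adjusted p = 0.318).

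Among 22 immunoglobulin-type and other adhesion molecules, 12 were at 0 everywhere and 4 were tested, with a median difference of -0.27 with ATRA. CD47, which binds integrins in cis and signals to phagocytes, fell by 0.77 with ATRA and with both drugs (adjusted p = 0.000195 and 0.000123), from 14 to 18 RPKM untreated to 9 to 10 RPKM in either group. PECAM1 is also on the list of markers of other cell types as an endothelial gene. It had 2 RPKM in each untreated library, 2 to 3 RPKM with palbociclib and 4 to 6 RPKM in both ATRA groups, through which alone it passed the floor. It rose by 1.26 with both drugs (adjusted p = 0.000902) but missed the call with ATRA (1.26, adjusted p = 0.00135). The limma difference, SE and unadjusted p (7.05e-05) were the same in these 2 comparisons, so only the adjustment over all genes set them apart. The endothelial marker CDH5 was at 0 in all libraries. ALCAM differed by -0.60 with ATRA (adjusted p = 0.00443) and CD99 by 0.06 (adjusted p = 0.69). Of 9 myeloid markers, 8 were tested, with 1 called higher with ATRA and 3 with both drugs (2.77% and 3.76% of all tested genes), and 0 lower. CEBPA rose by 0.60 with ATRA (adjusted p = 0.000532) and by 0.56 with both drugs (adjusted p = 0.00052). CSF3R, the G-CSF receptor, differed by 1.44 with ATRA (adjusted p = 0.00113, not called) and rose by 1.63 with both drugs (adjusted p = 0.000338). Adding palbociclib to ATRA moved CSF3R by 0.19 (SE 0.22, not called). MPO, for myeloperoxidase, differed by -0.25 with ATRA (adjusted p = 0.0625) and by -0.28 averaged over palbociclib (adjusted p = 0.00535), not called in either.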

How the data were processed

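HL-60 RNA was sequenced by the study from TruSeq poly(A) libraries, and per its methods and processing notes reads were mapped to hg38 with HISAT2 and counted with htseq-count at default settings, versions not given in the sources used here. The deposited values are RPKM made whole numbers by the authors (a score here, since rounding to the nearest number or cutting off is not stated). Total reads per library cannot be recovered from them, so depth is unknown and no counting interval is given. Summed RPKM was 358455 to 390247 per library. The table was read into R 4.3.3, and log2(RPKM + 0.1) of genes with at least 5 RPKM in at least 3 libraries was fitted with limma 3.58.1 (empirical Bayes with a mean-variance trend, all 12 libraries, 8 comparisons, adjustment per comparison), after a test on simulated data. Fold changes on this scale understate those of low genes with values above 0. Where values are listed at 0, the added 0.1 sets the fold change, which can then be overstated. Single members were also tested by exact permutation. Gene positions and overlaps came from GENCODE v44 on GRCh38, the same build.

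The members and the gene lists were chosen with earlier results of these data known. All members are named, with list genes that were called against untreated or had the 3 highest means of their list, and the 3 genes most like each called member. APBB1IP, CYTH1, ITGA6, ICAM4, ICAM5, ITGAD, CDH5, ELANE, CDC6 and ILK were added after their values were seen. Same-numbered libraries deviated together in every pair of treated groups (correlation of deviations 0.438 to 0.908). With untreated libraries these correlations were also positive but lower (0.0453 to 0.367), so pairing with untreated was not established. Alternatives were other floors (1 and 10 RPKM, none), pseudocounts, scalings, variance fits, thresholds, the replicate block and leaving out libraries.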

Additional observations from a re-analysis of the deposited data

How the results depend on the processing

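Counts of members called were recomputed under each alternative. ATRA against untreated, both drugs against untreated, both drugs against palbociclib and the average ATRA effect each called 1 member (ICAM1), and this stayed at 1 to 1 with each library left out in turn. With the floor at 1 RPKM, or with no floor, the counts were 3, 3, 2 and 3 of the 10 members then tested. At the floor of 1 RPKM, 1.95% of the 14003 genes were called higher with ATRA and 2.55% with both drugs. The shares for both drugs against palbociclib, for the average ATRA effect and without a floor are not given, so those counts stand without one. At adjusted p under 0.05 the counts were 2, 3 and 3 (both drugs against palbociclib kept 1), and with the replicate block as well 4, 4, 3 and 4. Of the 7820 genes, 681 were higher and 909 lower with ATRA at 0.05 without the block, and 996 and 1381 with both drugs. For both drugs against palbociclib these were 458 and 519, and for the average ATRA effect 908 and 1312. The numbers over all genes at 0.05 with the block are not given, so those member counts cannot be set against a share. At an unadjusted limma p under 0.05 with the block, 4 of the 5 members passed with ATRA. Beside them, 1505 of the 7820 genes were higher and 2035 lower. With the replicate block alone, both drugs against untreated and the average ATRA effect called 2 members, the added one being ITGAL (adjusted p = 0.000322 and 0.000156), and the block changed no other call of a member. Over the 7820 genes it called 514 higher and 690 lower in the former, and 566 and 691 in the latter. Pairing with untreated libraries was not established. When only the libraries compared entered the fit, 0 members were called in the first 3 comparisons, where ICAM1 had adjusted p = 0.0036, 0.00281 and 0.00666, and 3, 4 and 2 members had an unadjusted p under 0.05. At that unadjusted p, 1041 of the 7820 genes were higher and 1487 lower in the first of these fits, 1295 and 1745 in the second, and 705 and 869 in the third. The averages use all groups, so that fit gives no other value for them. Alternatives chosen after seeing the data were leaving out the 3 treated libraries numbered 1, with 2, 2 and 2 members called (both drugs against palbociclib kept 1), and the floor at 1 RPKM with the block, with 2, 3, 2 and 3. The shares of all genes at that floor with the block are not given. Without those 3 libraries the added member was ITGAL, whose lowest treated values this removes, and 3.09% of genes were called higher with ATRA and 4.08% with both drugs. Palbociclib alone, palbociclib added to ATRA, the average palbociclib effect and the departure from additivity called 0 members throughout. No fold change of ICAM1, ITGAL or ITGB1 with adjusted p under 0.05 changed direction. Whole-number values limit the members at 1 to 4 RPKM and the untreated level of ICAM1.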
